A study of Mus musculus with 9 samples.

Results

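The 10 transcription factor genes described here belong to the cerebellar granule neuron lineage and were followed across 9 tumour libraries from mouse: Atoh1, Nhlh1 and Nhlh2 of the basic helix-loop-helix (bHLH) class, Barhl1, Barhl2, Pax6 and Meis1 of the homeodomain class, and the zinc-finger genes Zic1, Zic2 and Zic5. They were chosen by symbol from the 17482 genes of the deposited expression table, and all 10 of 10 were found there and passed the filter on low values. The libraries fall into 3 genotype groups of 3, all from RNA of tumour tissue labelled MB and taken at postnatal day 8 or 9. The YSGr group (fYap1;fSMO-M2;hGFAPcre, called rescued) and the YSGnr group (the same 3 alleles, called non-rescued) carried a floxed Yap1 gene, and the SG group (fSMO-M2;hGFAPcre) did not. All 9 libraries therefore carried fSMO-M2, an activated form of the Hedgehog signal transducer Smoothened, and Cre recombinase under the human GFAP promoter, which acts in neural progenitors of many brain regions and not in granule progenitors alone. The labels do not say by what measure a tumour counted as rescued, how many Yap1 copies were floxed, or whether libraries came from separate animals. The p-values below therefore measure the spread between these libraries, which may be technical.

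Granule neuron progenitors arise in the rhombic lip under Atoh1, spread over the surface of the cerebellum and divide there in response to Sonic hedgehog. On leaving the cell cycle they switch Atoh1 off, turn on differentiation factors such as Neurod1 and migrate inward, while the Zic, Pax6 and Barhl1 genes are active over a wider stretch of the lineage. Sustained Smoothened activity in these cells gives medulloblastoma, in which Atoh1 and Hedgehog target genes are both active.

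In 8 libraries the reads calculated back from the table summed to 17.3 to 29.2 M, and in YSGnr replicate 1 to 9.66 M, of which Yam1 and Lars2 took 63.4%, against 1.98 to 8.15% elsewhere. Over all genes 2 libraries stood apart from their groups: YSGr replicate 3, which also differed from the other YSGr libraries in the genes described here, and YSGnr replicate 1. Counts of the members called are given with and without each of them. For the other gene lists, the counts without them are given for some of the comparisons only. Yap1, the floxed gene, had 4.44, 3.31 and 2.79 log2 CPM (counts per M reads, on the log2 scale) in YSGr, 2.79, 2.57 and 1.99 in YSGnr and 5.04, 5.11 and 5.02 in SG, so that every fYap1 library lay below every SG library. Xist, the RNA of the inactive X chromosome, had 9.81 to 10.81 log2 CPM in the 3 YSGr libraries and in YSGnr replicate 1, but -0.25 or less in the 2 other YSGnr libraries and all SG libraries. The Y-linked gene Ddx3y had the opposite distribution. The labels give no sex, and a difference between YSGr and SG cannot be told apart from one between libraries with high Xist and libraries with high Ddx3y. YSGnr holds both kinds. The hindbrain gene En2 had 5.69 to 7.12 log2 CPM over the 9 libraries, but not evenly. Every YSGr library lay above every SG library (log2 fold change 0.97, limma adjusted p = 0.0198) and above every YSGnr library. With any 1 SG library left out, En2 was not called between YSGr and SG. The other genes of the midbrain and hindbrain list were lower: En1 had -0.50 to 3.88 log2 CPM, and Gbx2 and Hoxa2 had at most -0.15 and 1.49.

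The upstream sequences of 4 members are shown first, because the levels of these genes differed within the YSGr group in opposite directions: Atoh1 and Barhl1 were low in replicates 1 and 2, and Zic1 and Zic5 were higher there. Each is a RefSeq promoter window on GRCm38.p6 of 250 bases before and 50 bases after the annotated start, written 5′ to 3′ on the gene's own strand. Atoh1 is at chr6:64728875-64729174 on the plus strand, and Barhl1 at chr2:28916619-28916918, Zic1 at chr9:91365719-91366018 and Zic5 at chr14:122465609-122465908 are on the minus strand. Capitals mark any match, on either strand, to CAGCTG (an E-box bound by bHLH factors), GACCACCCA (bound by Gli factors) or GGAATG (bound by TEAD factors, the DNA-binding partners of Yap1).
Atoh1: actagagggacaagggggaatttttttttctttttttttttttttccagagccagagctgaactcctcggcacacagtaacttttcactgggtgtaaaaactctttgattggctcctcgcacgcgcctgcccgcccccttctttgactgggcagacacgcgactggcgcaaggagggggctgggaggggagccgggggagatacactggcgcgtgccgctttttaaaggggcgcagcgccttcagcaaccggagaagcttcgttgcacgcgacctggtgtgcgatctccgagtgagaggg
Barhl1: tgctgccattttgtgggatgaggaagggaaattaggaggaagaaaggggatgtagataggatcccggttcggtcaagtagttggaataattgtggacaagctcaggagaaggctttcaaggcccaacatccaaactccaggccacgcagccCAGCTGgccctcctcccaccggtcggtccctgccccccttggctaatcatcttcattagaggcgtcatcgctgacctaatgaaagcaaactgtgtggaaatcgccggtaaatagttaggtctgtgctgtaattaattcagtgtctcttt
Zic1: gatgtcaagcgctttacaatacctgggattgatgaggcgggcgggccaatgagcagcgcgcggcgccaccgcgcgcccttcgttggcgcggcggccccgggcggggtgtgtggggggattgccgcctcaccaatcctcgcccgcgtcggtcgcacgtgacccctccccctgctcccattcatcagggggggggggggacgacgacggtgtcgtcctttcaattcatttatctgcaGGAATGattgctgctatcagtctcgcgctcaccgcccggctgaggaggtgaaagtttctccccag
Zic5: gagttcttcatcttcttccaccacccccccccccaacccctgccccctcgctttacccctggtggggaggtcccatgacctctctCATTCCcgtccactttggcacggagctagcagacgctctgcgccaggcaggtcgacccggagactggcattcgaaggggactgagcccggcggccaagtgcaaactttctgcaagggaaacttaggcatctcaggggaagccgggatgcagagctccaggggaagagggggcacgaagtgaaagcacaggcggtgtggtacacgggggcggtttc
The Atoh1 window held none of the 3 motifs. It was 56.7% G and C with 20 CpG dinucleotides, against 50.3% and 9 for Barhl1, 65.3% and 31 for Zic1, and 62.7% and 15 for Zic5. The Barhl1 window held 1 E-box, whose first base lay at position -99 from the start, and the windows of Zic1 and Zic5 held 1 GGAATG each, at -15 and -165. RefSeq windows were matched for 9 of the 10 members, 11 windows in all. An E-box was found in 3 of the 11 (both Barhl1 windows and that of Nhlh2), against 16.30% of 32851 windows of the same length in the whole table. GGAATG was found in 3 of the 11 (the second Barhl1 window, Zic1 and Zic5), against 14.66% of all windows, and GACCACCCA in 0 of the 11, against 0.25%. The motifs overlapped in none of the 4 printed windows. Of the members not printed, Nhlh2, Barhl2 and Zic2 were also higher in YSGr replicates 1 and 2 than in replicate 3. The Nhlh2 window held 1 E-box, the Barhl2 window held none of the motifs, and Zic2 had no matched window. The windows of Nhlh1 and Meis1, which were lower in replicates 1 and 2, held none. Any link between these motifs and the levels was not tested. No binding was measured in these samples.

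Atoh1, the bHLH factor that specifies granule neurons and keeps their progenitors dividing, is annotated at chr6:64729125-64731245 on the plus strand (GENCODE M21, the mm10 genome; likewise below). It had 3.89, 3.34 and 6.89 log2 CPM in YSGr replicates 1, 2 and 3, against 6.25, 6.31 and 6.53 in YSGnr and 5.89, 6.76 and 6.15 in SG. YSGr replicates 1 and 2 lay below all 6 YSGnr and SG libraries and YSGr replicate 3 lay above them, so that the YSGr libraries enclosed both other groups. These levels rest on about 432, 270 and 2705 reads in YSGr, 298, 1913 and 1930 in YSGnr and 1073, 2991 and 2289 in SG. The group means were 4.71 ± 1.91 in YSGr, 6.36 ± 0.15 in YSGnr and 6.27 ± 0.45 in SG (log2 CPM, SD, n = 3 each). The SD within YSGr was larger than that of 99.1% of the 15251 genes tested. In the limma fit over all genes Atoh1 did not pass the threshold between YSGr and SG, its log2 fold change being -1.56 with an SE of 0.75 (Benjamini-Hochberg adjusted p = 0.226) and a 95% interval of -3.25 to 0.13. In bulk tissue, fewer cells of a type and less RNA per cell cannot be told apart.

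Nhlh1 and Nhlh2 encode related bHLH factors of young neurons. Nhlh1 had 6.66, 6.37 and 7.09 log2 CPM in YSGr, 7.30, 7.45 and 7.04 in YSGnr and 6.64, 6.99 and 6.75 in SG. Every YSGnr library lay above every SG library, by a log2 fold change of 0.47 that did not pass the threshold (SE 0.20, limma adjusted p = 0.182), and the YSGr libraries overlapped both groups. Nhlh2 had 7.14, 6.72 and 6.34 in YSGr, 6.79, 7.02 and 6.65 in YSGnr and 6.86, 7.06 and 7.03 in SG. All 3 groups overlapped for Nhlh2, and YSGr replicate 3, the highest of the 9 libraries for Atoh1, was the lowest for Nhlh2.

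**Figure D1:**
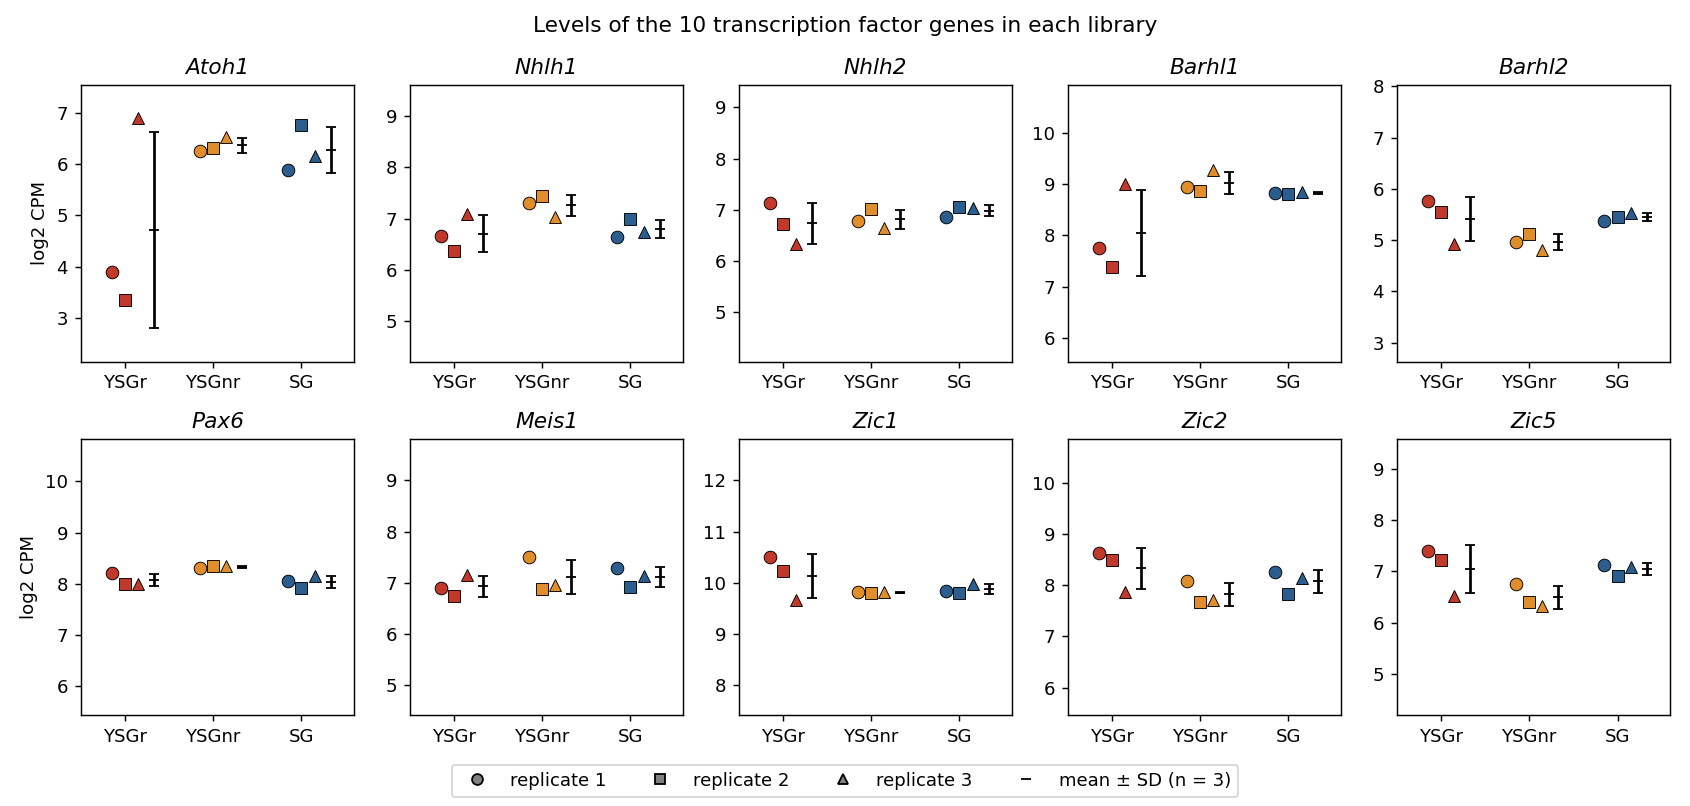
Levels of the 10 genes (vertical axes, log2 CPM, each axis of the same length) in the YSGr, YSGnr and SG groups; each symbol is 1 library, its shape gives the replicate, and the bar beside each group is the mean ± SD (n = 3). Atoh1 had 3.89 and 3.34 log2 CPM in YSGr replicates 1 and 2, against 6.89 in YSGr replicate 3 and 5.89 to 6.76 in the YSGnr and SG libraries. No 2 libraries differed by as much as 1 log2 unit in Pax6, Meis1, Nhlh2, Barhl2, Zic1 or Zic2.

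Barhl1, a homeobox gene that acts downstream of Atoh1 in the granule lineage (chr2:28907679-28916668, minus strand), was at 7.75, 7.38 and 8.9999 log2 CPM in YSGr, 8.93, 8.86 and 9.27 in YSGnr and 8.82, 8.80 and 8.84 in SG. YSGr replicates 1 and 2 were the lowest libraries of the 9, as they were for Atoh1. The 3 SG libraries lay within 0.04 of one another, and all YSGnr libraries lay above them. Its paralog Barhl2 ran the other way within YSGr, with 5.76, 5.55 and 4.92 log2 CPM in YSGr, 4.96, 5.12 and 4.81 in YSGnr and 5.37, 5.46 and 5.54 in SG. For Barhl2 every YSGnr library lay below every SG library, at -0.49 on the log2 scale (SE 0.21, limma adjusted p = 0.178), and YSGr replicate 3 lay among the YSGnr libraries.

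Pax6, a paired-box and homeobox factor needed for granule cell migration, varied little: 8.21, 8.002 and 8.001 log2 CPM in YSGr, 8.31, 8.34 and 8.35 in YSGnr and 8.06, 7.92 and 8.15 in SG. All YSGnr libraries lay above all YSGr and all SG libraries. The log2 fold change was 0.29 between YSGnr and SG (SE 0.13, limma adjusted p = 0.199). Its SD within YSGnr was larger than that of only 0.570% of the genes tested. The gene overlaps the antisense gene Pax6os1, which was at 0.07 to 1.97 log2 CPM, far below Pax6, and was higher in every YSGnr library than in the others. Meis1, a homeodomain factor of granule progenitors that binds DNA with Pbx partners, had 6.90, 6.74 and 7.15 in YSGr, 7.50, 6.89 and 6.95 in YSGnr and 7.29, 6.92 and 7.14 in SG. Its groups overlapped in every comparison, and the 95% interval of its log2 fold change between YSGr and SG was -0.62 to 0.26.

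The Zic genes encode zinc-finger factors that are active from the dividing progenitor to the mature granule neuron. Zic1 (chr9:91358058-91365810, minus strand) had 10.51, 10.23 and 9.66 log2 CPM in YSGr, 9.81, 9.79 and 9.82 in YSGnr and 9.84, 9.81 and 9.98 in SG. YSGr replicates 1 and 2 were the highest libraries of the 9 and YSGr replicate 3 was the lowest. Zic2 (chr14:122475435-122479852, plus strand) had 8.62, 8.48 and 7.87 in YSGr, 8.08, 7.67 and 7.71 in YSGnr and 8.26, 7.82 and 8.14 in SG, again with YSGr replicates 1 and 2 highest. Zic5 (chr14:122456795-122465677, minus strand) had 7.40, 7.23 and 6.52 in YSGr, 6.75, 6.39 and 6.33 in YSGnr and 7.12, 6.91 and 7.09 in SG. For Zic5 every YSGnr library lay below every SG library (log2 fold change -0.55, SE 0.23, limma adjusted p = 0.168) and YSGr replicate 3 lay among the YSGnr libraries. Zic2 and Zic5 are neighbours on chromosome 14 in opposite orientation, with 9757 bases between them. Zic1 overlaps Zic4 by 3398 bases on the opposite strand. The labels do not say whether the libraries kept strand, so reads of that overlap cannot be told apart.

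The 10 genes divided by how they differed inside the YSGr group. The mean of replicates 1 and 2 minus replicate 3 was -3.28 log2 units for Atoh1, -1.43 for Barhl1, -0.57 for Nhlh1 and -0.33 for Meis1. It was 0.10 for Pax6, and positive for the remaining 5: 0.59 for Nhlh2, 0.68 for Zic2, 0.71 for Zic1, 0.73 for Barhl2 and 0.79 for Zic5. Over all genes tested the median was -0.03, and 99.4% had a smaller absolute difference than Atoh1 and 93.9% a smaller one than Barhl1. Summed over the 10 genes the level was 11.53, 11.28 and 11.24 log2 CPM in YSGr, 11.37, 11.29 and 11.35 in YSGnr and 11.32, 11.27 and 11.38 in SG. Zic1 makes up much of that sum. The composition of the set thus varied among the YSGr libraries more than its total did.

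**Figure D2:**
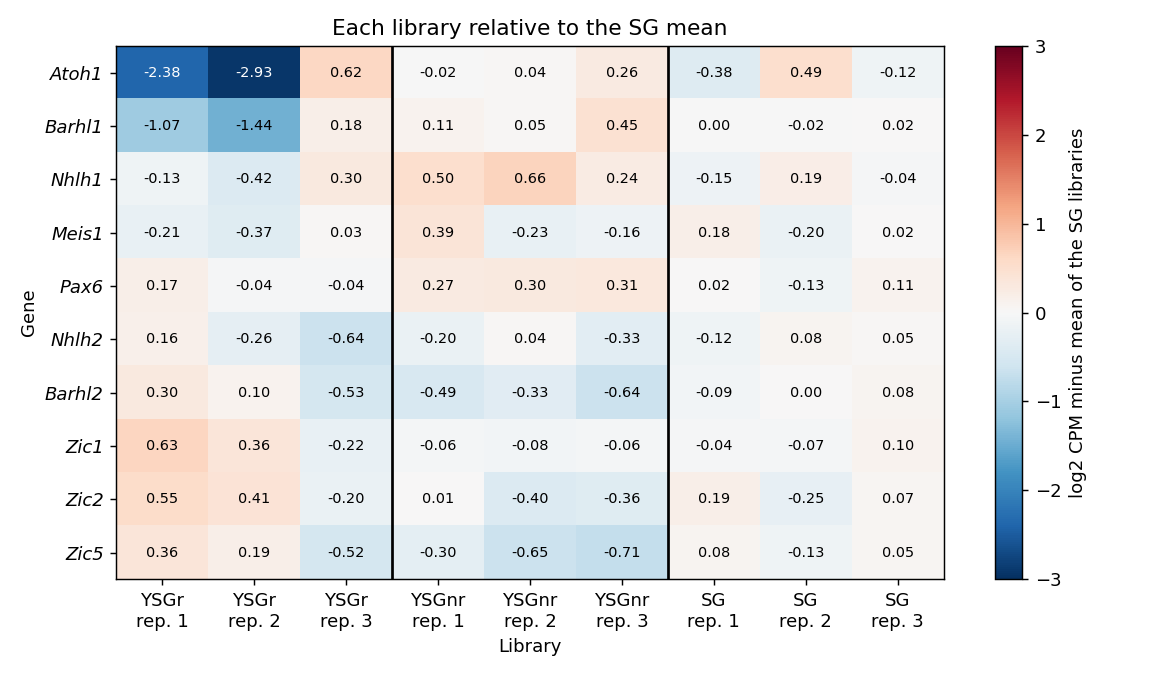
Level of each gene in each library relative to the mean of the 3 SG libraries (colour and number, difference in log2 CPM), with YSGr, YSGnr and SG from left to right. In YSGr replicates 1 and 2 the Atoh1 and Barhl1 cells are blue and the Zic1 cells red, and in YSGr replicate 3 this pattern is not seen.

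Divided by the length of the longest transcript, the levels in SG ran in the order Zic1 (7.39 log2 CPM per kb), Barhl1 (6.94), Zic2 (6.79), Pax6 (5.90), Nhlh1 (5.49), Atoh1 (5.18), Nhlh2 (5.003), Zic5 (4.79), Barhl2 (4.24) and Meis1 (4.20). Barhl1 and Zic2, Nhlh1 and Atoh1, Atoh1 and Nhlh2, Atoh1 and Zic5, Nhlh2 and Zic5, and Barhl2 and Meis1 did not differ beyond their spread. In YSGr the mean per kb of Atoh1 was the lowest of the 10, at 3.62 ± 1.91 log2 CPM per kb (SD, n = 3), a spread that covers several other members.

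Between YSGr and SG, the comparison of rescued fYap1 tumours with tumours that carry no floxed Yap1, 0 of the 10 genes passed the threshold of an adjusted p under 0.05, against 10.5% of all genes tested (6.58% higher and 3.97% lower). At an unadjusted limma p under 0.05 there were also 0 of 10, against 26.1% of all genes. No member had groups that did not overlap, against 36.8% of all genes. The largest differences were in Atoh1 (-1.56) and Barhl1 (-0.77, SE 0.35, adjusted p = 0.202), and the other 8 lay between -0.25 and 0.26 on the log2 scale. The 3 Zic genes had fold changes of 0.26, 0.25 and 0.01, that of Zic5 turning to -0.02 under quantile normalization and to -0.01 with the length and GC trend removed. The median over the members was -0.06, beside -0.02 over all genes.

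With YSGr replicate 3 left out, Atoh1 and Barhl1 were both called lower in YSGr than in SG, 2 of 10 members beside 13.5% of all genes called lower and 27.9% called in either direction in that fit. Atoh1 fell by 2.65 on the log2 scale (SE 0.26, limma adjusted p = 0.000336), to 0.159 of its SG level, and Barhl1 fell by 1.25 (SE 0.17, limma adjusted p = 0.00125). Zic1 and Zic2 had log2 fold changes of 0.49 and 0.48 and missed the threshold (limma adjusted p = 0.0559 and 0.0822). YSGr replicate 3 carries the same group label as the other YSGr libraries and differs from them in these very genes, so the fit without it describes YSGr replicates 1 and 2 and not the group. Leaving out YSGnr replicate 1 in its place gave 0 of 10 members called, beside 15.7% of all genes. In that fit 0 members had an unadjusted limma p under 0.05, beside 4865 of the 15251 genes tested.

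Between YSGnr and SG, the comparison of non-rescued fYap1 tumours with SG, 0 of the 10 were called, against 3.36% of all genes (1.19% higher and 2.17% lower). At an unadjusted limma p under 0.05 there were 3 (Nhlh1 higher, Barhl2 and Zic5 lower), against 25.6% of all genes. The groups did not overlap for 5 of the 10, beside 38.2% of all genes: 3 were higher in YSGnr (Nhlh1, Barhl1 and Pax6), beside 16.9%, and 2 lower (Barhl2 and Zic5), beside 21.3%. The log2 fold changes of Atoh1 (0.10), Zic1 (-0.07) and Meis1 (0.00) became -0.13, 0.18 and 0.43 with the length and GC trend removed. Without that correction they had 95% intervals of -1.60 to 1.79, -0.57 to 0.44 and -0.44 to 0.44. The median over the members was -0.03, beside -0.01 over all genes. Without YSGr replicate 3, which enters this comparison only through the shared estimate of spread, Barhl2 and Zic5 were called lower. They fell by 0.49 (SE 0.12, limma adjusted p = 0.0315) and 0.55 (SE 0.14, limma adjusted p = 0.0316). Of all genes 10.3% were called lower and 17.3% in either direction. The 2 fold changes were the same with all 9 libraries, where neither gene was called. That library was left out because it stood apart from its own group, so these p-values do not test YSGnr against SG. Without YSGnr replicate 1 no member was called, beside 21.8% of all genes. In that fit 1 member had an unadjusted limma p under 0.05, beside 6110 of the 15251 genes tested.

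Between YSGr and YSGnr, whose labels name the same alleles and differ by rescue, 0 of the 10 were called, against 5.97% of all genes (5.09% higher and 0.879% lower). The labels do not say whether the number of floxed Yap1 copies was the same. Xist was high in every YSGr library but only in replicate 1 of YSGnr, so rescue is not the only difference between these groups. At an unadjusted limma p under 0.05 there were 3 (Nhlh1 and Barhl1 lower, Zic5 higher in YSGr), against 33.9% of all genes. The groups did not overlap for 1 member, Pax6, lower in YSGr (log2 fold change -0.26), beside 22.5% of all genes (7.46% lower). The log2 fold changes were -1.66 for Atoh1 (SE 0.75, adjusted p = 0.153), -0.98 for Barhl1 (SE 0.35, adjusted p = 0.099), -0.55 for Nhlh1 (SE 0.20, adjusted p = 0.0994) and 0.56 for Zic5 (SE 0.23, adjusted p = 0.123) in the limma fit. The median was -0.13, beside 0.01 over all genes. With YSGr replicate 3 left out, 7 of 10 were called, 4 higher and 3 lower, beside 42.8% of all genes (22.2% higher and 20.6% lower). Atoh1 fell by 2.75 (limma adjusted p = 0.000301), Barhl1 fell by 1.46 (limma adjusted p = 0.000595) and Nhlh1 fell by 0.74 (limma adjusted p = 0.00873). Zic5 rose by 0.82 (limma adjusted p = 0.00373), Zic2 by 0.73 (0.0129), Barhl2 by 0.69 (0.00476) and Zic1 by 0.56 (0.0253), each an adjusted p of the same fit. YSGr replicate 3 differs from its group in these very genes, so this fit describes YSGr replicates 1 and 2 and not the group. Its p-values do not test the group. Without YSGnr replicate 1, 0 of 10 members were called, beside 31% of all genes. In that fit 4 members had an unadjusted limma p under 0.05, beside 7375 of the 15251 genes tested. The 3 comparisons share libraries and are not independent.

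**Figure D3:**
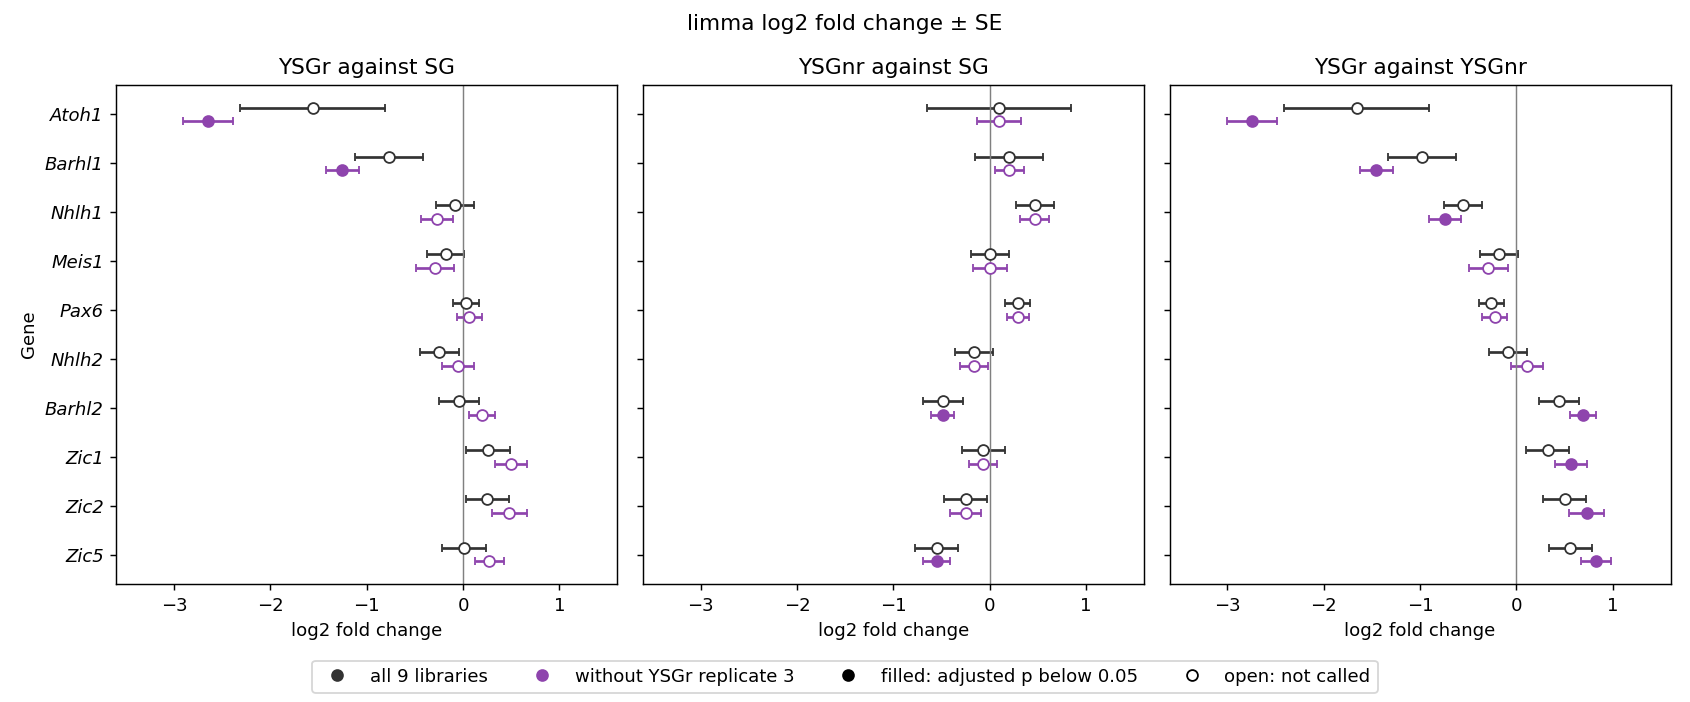
Log2 fold change ± SE of each gene (horizontal axis) from limma in the 3 comparisons, with all 9 libraries (black) and without YSGr replicate 3 (purple); filled symbols passed an adjusted p of 0.05. No black symbol is filled, and without YSGr replicate 3 Atoh1 is called at -2.65 against SG and -2.75 against YSGnr.

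The genes whose profile over the 9 libraries lay nearest to that of Atoh1, after each was centred on its own mean, were Emilin3, an extracellular matrix gene (root-mean-square difference 0.240 log2 units), Sfrp2, a secreted Wnt modulator (0.317), Cxcr4, a chemokine receptor of granule progenitors (0.326), 1700001O22Rik (0.330) and Gli1, a transcriptional effector and target of Hedgehog signalling (0.333). They are the nearest 5 of 10882 genes with a mean of at least 3 log2 CPM. Gli1 had 5.12, 5.01 and 7.57 log2 CPM in YSGr, 7.49, 7.30 and 7.42 in YSGnr and 7.65, 7.75 and 7.48 in SG, thus low in the same 2 YSGr libraries as Atoh1. Among the members Barhl1 was nearest to Atoh1 (0.651), then Nhlh1 (0.991). The others lay 1.11 to 1.48 from it, and a profile with no change would lie 1.20 from it. The likeness is a description over libraries that share their groups.

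The paralogs of the members were described as a group of 12, of which 11 were tested. Between YSGr and SG, 2 fell and 0 rose, among them Pbx3 (log2 fold change -0.97, limma adjusted p = 0.0367), which encodes a homeodomain partner of Meis proteins, beside 10.5% of all genes called. Without YSGr replicate 3, 2 rose and 2 fell, beside 27.9% of all genes, and without YSGnr replicate 1, 0 rose and 3 fell, beside 15.7%. With any 1 SG library or YSGr replicate 1 or 2 left out 0 were called. Between YSGnr and SG, 1 fell, the Meis1 paralog Meis2 (-3.34, limma adjusted p = 0.0233), beside 3.36% of all genes called. Meis2 had -0.74, 1.39 and 0.13 log2 CPM in YSGnr and 3.78, 2.97 and 4.04 in SG. In YSGr it had 1.46, 2.45 and 0.81, also below every SG library (log2 fold change -2.03, limma adjusted p = 0.0555). Between YSGnr and SG without YSGr replicate 3, 1 paralog rose and 4 fell, beside 17.3% of all genes called. With any 1 SG library or YSGnr replicate 3 left out 0 were called there. Between YSGr and YSGnr, 3 rose and 0 fell, beside 5.97% of all genes, among them Pax2, a marker of inhibitory interneuron precursors (2.09, limma adjusted p = 0.0436), and Pax3 (1.27, limma adjusted p = 0.0492). Pax2 and Pax3 were each called in 2 of the 9 fits that leave out 1 library (without YSGr replicate 3 or YSGnr replicate 1), with limma adjusted p up to 0.188 and 0.206 in the others. In the fit on the 6 YSGr and YSGnr libraries alone neither was called (limma adjusted p = 0.161 and 0.175). Pax3 had 4.41, 4.32 and 3.14 log2 CPM in YSGr, 2.45, 2.98 and 2.64 in YSGnr and 3.73, 3.70 and 3.55 in SG. As for Zic1, Zic2 and Zic5, its level in YSGr replicate 3 was below that in the other YSGr libraries. Unlike the Zic genes, whose groups overlapped, Pax3 was higher in every YSGr library than in every YSGnr library. Over all genes 22.5% had no overlap between these groups, in either direction.

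Of the 12 dimer partners and antagonists of bHLH factors, 2 fell and 0 rose between YSGr and SG: Hes5, a Notch-induced repressor (-0.88, limma adjusted p = 0.0336), and Tcf12, an E protein that pairs with Atoh1 (-0.55, limma adjusted p = 0.0333). Over all genes 10.5% were called in that fit. Without YSGr replicate 3, 1 rose and 4 fell, beside 27.9% of all genes, and without YSGnr replicate 1, 1 rose and 2 fell, beside 15.7%. With any 1 SG library or YSGr replicate 1 or 2 left out 0 were called. Hes5 was also the 1 gene that fell between YSGnr and SG (-1.66, limma adjusted p = 0.0108), beside 3.36% of all genes called. It was called there in 6 of the 9 fits that leave out 1 library. Id4, an inhibitor of bHLH dimers, rose between YSGr and YSGnr (1.57, limma adjusted p = 0.0334), beside 5.97% of all genes called. That call was kept in 2 of the 9 fits that leave out 1 library. Of the 12 differentiation factors of the granule lineage, 2 rose and 1 fell between YSGr and SG, beside 10.5% of all genes. This became 5 rose and 3 fell without YSGr replicate 3, 2 and 3 without YSGnr replicate 1, and 1 rose and at most 1 fell without any 1 SG library or YSGr replicate 1 or 2. The neuronal bHLH factor Neurod2 (1.40, limma adjusted p = 0.0229) and the neuronal splicing factor Rbfox3 (1.23, limma adjusted p = 0.0036) rose, and Zeb1, a repressor that holds progenitors undifferentiated, fell (-1.43, limma adjusted p = 0.0115). With each library left out in turn Rbfox3 was called in 9 of 9 fits, Zeb1 in 6 and Neurod2 in 4. Between YSGnr and SG 0 were called, beside 3.36% of all genes, with 3 at an unadjusted limma p under 0.05, beside 25.6% of all genes. Between YSGr and YSGnr, 3 rose: Etv1 (1.31), Neurod2 (1.23) and Rbfox3 (0.68), each called in 2 of 9 such fits, those without YSGr replicate 3 or YSGnr replicate 1.

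Hedgehog response genes and proliferation genes were also low in the libraries in which Atoh1 was low. The median of 12 Hedgehog genes relative to SG was -1.38, -1.57 and -0.10 log2 units in YSGr, -0.13, -0.35 and -0.28 in YSGnr and 0.05, -0.02 and -0.05 in SG. The median of 10 proliferation genes was -0.90, -1.28 and -0.12 in YSGr and -0.17, 0.07 and 0.17 in YSGnr. By these medians YSGr replicate 3 lay near SG while the other YSGr libraries lay below it, but single genes differed. Mki67, a cell cycle antigen gene, had 8.96, 8.48 and 8.94 log2 CPM in YSGr and 9.84, 9.76 and 9.85 in SG, so that YSGr replicate 3 was as low as replicate 1. Hhip, a Hedgehog-binding inhibitor, had 2.67, 2.76 and 4.61 in YSGr and 5.73, 5.74 and 5.68 in SG, so that replicate 3 lay between the other YSGr libraries and SG. Between YSGr and SG, 4 of 12 Hedgehog genes fell and 0 rose (Hhip -2.37, Ccnd1 -2.03, Ptch1 -1.83 and Gli3 -0.78 on the log2 scale), as did 4 of 10 proliferation genes, among them Mki67 (-1.02). Over all genes 10.5% were called, 3.97% lower. Without YSGr replicate 3 the genes that fell were 9 of 12 and 10 of 10, beside 27.9% of all genes called. Without YSGnr replicate 1 they were 4 of 12 and 5 of 10, beside 15.7%. With any 1 SG library or YSGr replicate 1 or 2 left out they were 0 of 12 and 1 or 2 of 10. Between YSGnr and SG 1 gene fell in each list, beside 3.36% of all genes called. Between YSGr and YSGnr 0 were called in either, beside 5.97% of all genes. At an unadjusted limma p under 0.05 there were 6 of 12 Hedgehog and 9 of 10 proliferation genes, beside 33.9% of all genes. In that comparison 8 of 12 and 9 of 10 fell without YSGr replicate 3, beside 42.8% of all genes, and 0 of 12 and 5 of 10 without YSGnr replicate 1, beside 31% of all genes.

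Markers of other cells and of mature neurons differed between the groups as well. Of all genes, 10.5% were called between YSGr and SG, 3.36% between YSGnr and SG and 5.97% between YSGr and YSGnr. Without YSGr replicate 3 these shares were 27.9%, 17.3% and 42.8%, and without YSGnr replicate 1 15.7%, 21.8% and 31%. The other fits that leave out 1 library called 2.15 to 8.95%, 0.125 to 1.55% and 0.00656 to 0.0656%. In the mature granule neuron list 7 of 8 genes rose between YSGr and SG and 5 of 8 between YSGnr and SG. With 1 library left out these counts were 6 to 8 and 2 to 6. Its summed level was 9.83 to 10.60 log2 CPM in YSGr, 8.65 to 9.45 in YSGnr and 8.43 to 8.75 in SG, and every YSGr library, replicate 3 included, lay above every SG library. Purkinje markers (2 rose and 1 fell of 6 between YSGr and SG, 5 and 1 without YSGr replicate 3) summed to 9.97 to 10.82 in YSGr, 8.51 to 9.63 in YSGnr and 9.44 to 9.57 in SG. Without YSGnr replicate 1, 4 Purkinje markers rose and 1 fell between YSGr and SG. Interneuron markers (1 of 6 rose between YSGr and SG, 5 of 6 without YSGr replicate 3) summed to 7.81 to 8.92 in YSGr, 6.86 to 7.53 in YSGnr and 7.70 to 7.75 in SG, with YSGr replicate 3 the lowest of its group in both lists. Between YSGr and YSGnr 4 of 6 Purkinje and 5 of 6 interneuron markers rose. With 1 library left out, 0 did in either list except without YSGr replicate 3 (4 and 6) or YSGnr replicate 1 (5 and 6). Oligodendrocyte markers (5 rose and 1 fell of 7, with 1 to 5 rising when 1 library was left out) summed to 10.99 to 11.62 in YSGr, 9.73 to 10.77 in YSGnr and 9.43 to 10.20 in SG. Every gene of these 4 lists passed the filter on low values. Their part in the differences of the 10 transcription factor genes was not tested.

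**Figure D4:**
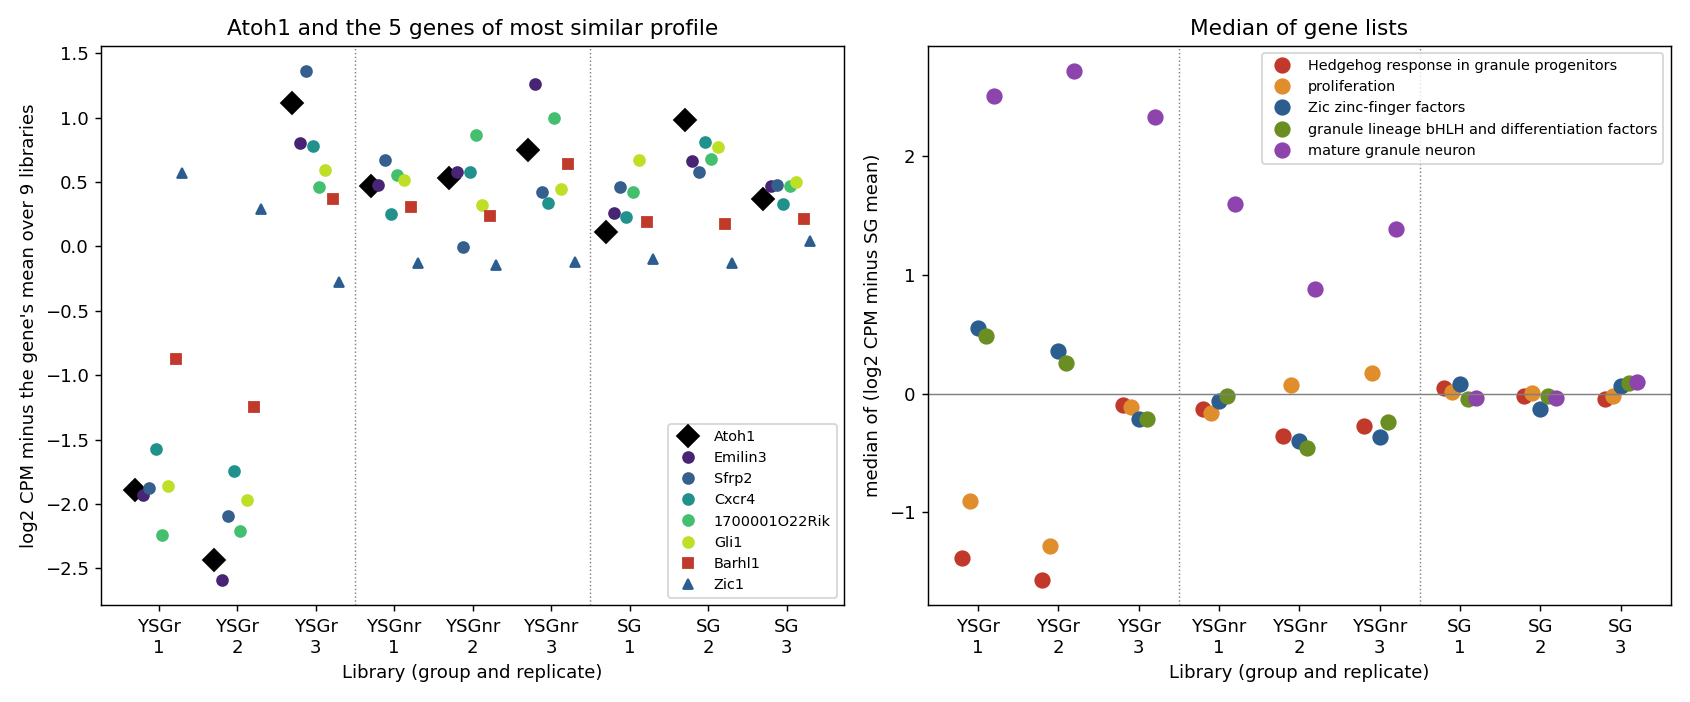
Left, level of Atoh1, of the 5 genes of most similar profile and of Barhl1 and Zic1 in each library, each centred on its own mean over the 9 libraries (log2 CPM). Right, median over the genes of 5 lists of the difference from the SG mean (log2 CPM). The median of the Hedgehog list is -1.38 and -1.57 in YSGr replicates 1 and 2 and -0.10 in YSGr replicate 3, whereas that of the mature granule neuron list is 2.505, 2.71 and 2.32.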

How the data were processed

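RNA of tumour tissue in 9 libraries (3 YSGr, 3 YSGnr, 3 SG) was sequenced by the submitters. The deposited table gives log2 CPM per gene. Per the submitters' processing notes, Trimmomatic, RSEM, Bowtie2, Picard and edgeR were used with mm10; no version, parameter or role is given there. RSEM estimates need not be whole: 62.0 to 68.9% of values came out as whole reads (within 0.02) when the lowest value shared by at least 20 genes above the minimum was taken as 1 read, so reads are approximate, no count test was run, and depth limits low genes most.

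Genes above 0 log2 CPM in at least 3 libraries (15251 of 17482) were fitted with limma 3.58.1 in R 4.3.3 (1 mean per group, all 9 libraries, mean-variance trend, two-sided, Benjamini-Hochberg adjustment over all tested genes, called below 0.05). The calculation was tested on simulated data. Replicate pairs of a group differed by more than sampling noise, so none were merged. Gene positions are from GENCODE M21, in which 95.6% of symbols matched 1 gene.

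All members are named, with Yap1, up to 4 called genes of each other list and the 5 genes nearest to Atoh1. The members and lists were chosen with earlier results of these data known. Alternatives covered filters, pseudocount, scaling, weights, blocks, length and GC trends, and libraries left out; the fits of the other lists with each library left out were added after seeing the data. Other marker lists (unipolar brush cell and rhombic lip, astrocyte, microglia, endothelium, meninges, forebrain, midbrain and hindbrain) are reported at the end. Some genes of these lists are counted but not reported here by name.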

Additional observations from a re-analysis of the deposited data

How the results depend on the processing

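With 1 library left out, the members called numbered 0 to 2 between YSGr and SG, 0 to 2 between YSGnr and SG and 0 to 7 between YSGr and YSGnr; only the fits without YSGr replicate 3 called any. The genes called numbered 328 to 4257, 19 to 3332 and 1 to 6528, beside 1608, 512 and 910. They rose without YSGr replicate 3 or YSGnr replicate 1. Without any SG library the first became 328, 345 and 417, and without YSGr replicate 1 or 2 400 and 359. Array weights, whose estimation stopped before convergence, called 7, 4 and 7 members and 9661, 7316 and 9967 genes. Leaving out YSGr replicate 3 and YSGnr replicate 1 together called 5, 5 and 7 members and 7556, 8074 and 9867 genes. Fits on the 6 libraries of a comparison called 1190 genes between YSGnr and SG and 0 between YSGr and YSGnr, where 3368 had an unadjusted limma p under 0.05. Between YSGr and YSGnr, median scaling called 316 genes and removal of the length and GC trend 1568. The replicate block called 0 members in each comparison and 1194, 341 and 860 genes. The replicate block with the length and GC trend removed called 323 genes between YSGnr and SG and 1 member, Barhl1 (-1.18), between YSGr and YSGnr. The numbers do not pair the libraries: deviations of same-numbered libraries correlated between -0.23 and 0.24.

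Directions turned for members near 0. Between YSGr and SG, Zic5 became -0.019 (quantile) and -0.011 (length and GC, with and without the block), Nhlh2 0.073 (weights) and Barhl2 0.23 (weights) and 0.20 (both libraries out). Between YSGnr and SG, Meis1 became 3.23e-05 (log2(CPM + 1)), 0.018 (median scaling), 0.029 (quantile) and 0.43 (length and GC, with and without the block), and Atoh1 -0.13 and Zic1 0.18 in those last fits. Between YSGr and YSGnr, Nhlh2 became 0.19 (weights) and 0.094 (both out). With 1 library left out, the ranges that crossed 0 were, between YSGr and SG, -0.27 to 0.083 for Nhlh1, -0.040 to 0.084 for Pax6, -0.17 to 0.27 for Zic5 and -0.22 to 0.20 for Barhl2; between YSGnr and SG, -0.093 to 0.34 for Atoh1 and -0.19 to 0.11 for Meis1; and between YSGr and YSGnr, -0.29 to 0.11 for Nhlh2 and -0.30 to 0.011 for Meis1. The causes of these shifts were not tested.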

Other observations

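Differences between paralogs inside a library do not depend on its scaling; these 4 pairs were chosen after their values were seen, and 3 libraries against 3 cannot give an exact permutation p below 0.1. Zic2 exceeded its neighbour Zic5 by 1.22, 1.26 and 1.35 log2 units in YSGr, 1.34, 1.28 and 1.38 in YSGnr and 1.14, 0.91 and 1.05 in SG. Every fYap1 library thus had a larger gap than every SG library (two-sided exact permutation p = 0.1 for each group, adjusted over the 4 pairs 0.4 for YSGr and 0.133 for YSGnr), and YSGr replicate 3 did not stand apart. Barhl1 exceeded Barhl2 by 1.99, 1.83 and 4.08 in YSGr, 3.97, 3.74 and 4.46 in YSGnr and 3.45, 3.34 and 3.30 in SG. Nhlh1 minus Nhlh2 was -0.48, -0.35 and 0.75 in YSGr, 0.51, 0.43 and 0.38 in YSGnr and -0.22, -0.07 and -0.28 in SG, positive in all YSGnr libraries and negative in all SG libraries (exact permutation p = 0.1, adjusted 0.133). Zic1 exceeded Zic4 by 2.97, 2.92 and 2.49 in YSGr, 2.67, 2.502 and 2.86 in YSGnr and 2.52, 2.48 and 2.58 in SG, and the groups overlapped (exact permutation p = 0.3 for YSGr and for YSGnr against SG).

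Among the remaining marker lists, 2 of 5 unipolar brush cell and rhombic lip genes fell between YSGr and SG. With 1 library left out, 1 to 3 fell. The list summed to 6.29 to 6.54 log2 CPM in YSGr, 6.47 to 7.41 in YSGnr and 7.31 to 7.44 in SG. Eomes was the 1 gene of the list with a positive log2 fold change between YSGr and SG (0.99, limma adjusted p = 0.0746). It was not called, but every YSGr library lay above every SG library. Without YSGr replicate 3, 1 gene of the list rose and 2 fell, beside 27.9% of all genes called. Of all genes, 10.5% were called between YSGr and SG and 3.36% between YSGnr and SG. Of 8 astrocyte and stem cell genes 2 rose and 2 fell between YSGr and SG, and 1 rose and 3 fell between YSGnr and SG. Of 5 endothelial genes 0 were called between YSGr and SG (0 at an unadjusted limma p under 0.05) and 3 fell between YSGnr and SG. Microglia (0 of 6 called, 1 at an unadjusted limma p under 0.05), meninges (1 of 6 rose), forebrain (1 of 3 rose) and midbrain and hindbrain genes (1 of 3 rose, En2) complete the YSGr and SG comparison. Of all genes, 26.1% had an unadjusted limma p under 0.05 between YSGr and SG. With any 1 SG library left out, no gene of the endothelial, meningeal, forebrain or midbrain and hindbrain lists was called between YSGr and SG, and no endothelial or astrocyte and stem cell gene between YSGnr and SG. Those fits called 2.15 to 2.73% and 0.125 to 0.151% of all genes.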
